A study of Homo sapiens with 12 samples.

Results

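The genes described here are the interleukins, the secreted messengers of blood and immune cells, together with their receptors and natural antagonists. They were chosen by name and biotype: every protein-coding gene in the deposited table whose symbol begins with IL followed by a digit, leaving out IL3RA and IL16. That gave 64 of the 26318 genes in the table: 27 ligands, 32 receptor genes, 3 antagonists (IL18BP, IL1RN and IL36RN), the decoy receptor IL1R2 and IL4I1. IL4I1 carries an interleukin-like symbol but encodes a secreted enzyme, an L-amino acid oxidase. Of these members 3 were at 0 in every library (IL4, IL34 and IL37), 27 had counts too low for the main test, and 34 were tested.

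The 12 libraries were made from poly(A) RNA of cells that every title and library name calls TMD8. TMD8 is an established human lymphoma line that belongs to the activated B cell (ABC) class of diffuse large B cell lymphoma. Cells of 6 libraries carried a short hairpin RNA (shRNA) that lowers IRF4 messenger RNA, and cells of the other 6, the control, carried a scramble shRNA. Pellets were taken at 24 h in both groups. The cell line field of the labels does not repeat TMD8 but counts up by 1 from library to library, as far as TMD19; all libraries were taken here as the 1 line of the titles. The labels used here give neither the hairpin's sequence nor its delivery. Nothing in them says that replicates were grown apart; the p-values rest on how much these libraries vary, which may be technical. Library names carry a first number, 1 or 2, called here the library series, and each series holds 3 libraries of each group.

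Most interleukin receptors are built from a chain that is specific to the ligand and a chain shared by a family, such as the common gamma chain IL2RG or the gp130 chain IL6ST. These receptors signal through Janus kinases (JAK) and STAT transcription factors, while IL1 and IL17 family receptors signal through adaptor proteins to NF-kappa-B. IRF4 is a transcription factor of activated B cells and plasma cells on which this lymphoma type depends. Lymphomas of the ABC class are known for secreting IL6 and IL10 and for STAT3 activity.

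IRF4 itself had 507, 607 and 715 CPM (counts per 1e6 counts; lowest, median and highest library) with IRF4 shRNA, against 1426, 1468 and 1570 CPM in control. Every IRF4 shRNA library lay below every control library, the mean was 41.3% of control, and the log2 fold change was -1.28 (SE 0.09, edgeR adjusted p = 1.41e-08; exact permutation p = 0.00216, the smallest that 6 against 6 allow, two-sided). Depth, in units of 1e6 counts, was 31.9 to 38.2 per IRF4 shRNA library and 31.3 to 36.0 per control library. All 6 B cell markers on the list, among them MS4A1, CD79A and PAX5, were at 1 CPM or more in both groups, with a summed level of 6474 to 6809 CPM with IRF4 shRNA and 4526 to 5109 CPM in control. Control replicates 5 and 6 stood apart from control replicates 2 to 4, and control replicate 1 lay in between. Over gene counts, chi-square per degree of freedom was 23.2 to 49.2 between replicates 5 and 6 and replicates 2 to 4. It was 3.44 to 4.07 among replicates 2 to 4. For control replicate 1 it was 6.89 to 13.1 against replicates 2 to 4, 14.02 against replicate 5 and 22.26 against replicate 6.

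Many interleukin genes are known mainly from T cells and myeloid cells, so the markers of those cells are given with their levels. CD3E, a chain of the T cell receptor complex, averaged 0.00511 CPM with IRF4 shRNA and 0 CPM in control; of the 4 T cell markers in the table only CD4 reached 1 CPM, and the list summed to 4.8 to 5.89 CPM with IRF4 shRNA and 5.21 to 8.07 CPM in control. The 3 natural killer cell markers in the table summed to at most 0.0254 CPM with IRF4 shRNA and 0.0327 CPM in control, and the 3 monocyte markers to 0.299 to 0.87 CPM with IRF4 shRNA and 0.153 to 0.823 CPM in control, with LYZ at a mean of 0.208 CPM with IRF4 shRNA and 0.0201 CPM in control. The mast cell marker TPSAB1 was at 0 in both groups. The 2 plasmacytoid dendritic cell markers in the table, which summed to 10.6 to 14.8 CPM with IRF4 shRNA and 7.12 to 8.91 CPM in control, went opposite ways: LILRA4 averaged 12.7 CPM with IRF4 shRNA and 4.57 CPM in control, and CLEC4C averaged 0.277 CPM with IRF4 shRNA and 3.43 CPM in control. The 4 epithelial and stromal markers summed to 5.36 to 7.06 CPM with IRF4 shRNA and 4.05 to 5.48 CPM in control, of which COL1A1 averaged 5.06 CPM with IRF4 shRNA and 4.18 CPM in control and COL1A2 averaged 0.797 CPM with IRF4 shRNA and 0.0803 CPM in control; the part of these last lists in the results was not tested.

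With IRF4 shRNA, 19 of the 34 tested members rose and 5 fell, at an adjusted p under 0.05, and 10 did not pass the test. The cytokine genes IL10, IL6, IL1A, IL23A and IL19, the enzyme gene IL4I1 and the receptor genes IL22RA1, IL2RB, IL12RB1, IL27RA, IL2RG and IL1RAP rose by at least 2-fold. The receptor genes IL5RA and IL6R fell by at least 2-fold, and IL12B, IL12A and IL13RA1 fell by less. In RNA of bulk cells, more cells that express a gene and more RNA of it per cell cannot be told apart. The rise of IL10 was 6.06-fold and that of IL6 5.68-fold, while the fall of IL6R was 2.51-fold.

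These counts stand against a large change across the genome: 48.2% of all 16437 tested genes passed the same test, 24.2% higher and 23.9% lower, against 70.6% of the tested members. Members at least 2-fold higher numbered 12, where 5.65% of all genes tested were, and those at least 2-fold lower numbered 2, where 2.74% of all genes were. The median log2 fold change was 0.37 over the tested members and -0.006 over all tested genes. The lowest IRF4 shRNA library lay above the highest control library, or the reverse, for 22 members, 18 of them higher with IRF4 shRNA and 4 lower; among all tested genes the groups did not overlap in 30.8%, with 16.2% higher and 14.7% lower. The filter asked for about 0.288 CPM in 6 libraries, and IL1A, IL19, IL22RA1 and IL23A met it in all 6 libraries of the IRF4 shRNA group only, so that these members, which entered the test through the group in which they were high, are no support for the count. They are also counted among the members at least 2-fold higher and those whose groups did not overlap. IL5RA met the cutoff in 5 control libraries and 1 IRF4 shRNA library. It entered mainly through control, where it was high, and is no support for the count of members that fell. Of the 28 members that met the filter in both groups, 15 rose, 4 fell and 9 did not pass, with a median of 0.35. Among these 28, 8 were at least 2-fold higher and 1 at least 2-fold lower. Scaling by library size alone moved the split over all genes to 63.9% of the calls being higher, against 50.3% with the scaling used here, and then 21 members rose and 5 fell (50.0% of all genes passed, 31.9% higher and 18.1% lower). Without control replicates 5 and 6, 21 of 37 tested members rose and 6 fell (51.8% of all genes passed, 26.4% higher and 25.4% lower). With each library's trend with transcript GC content removed, 19 rose and 6 fell (54.1% of all genes passed, 28.3% higher and 25.9% lower).

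**Figure D1:**
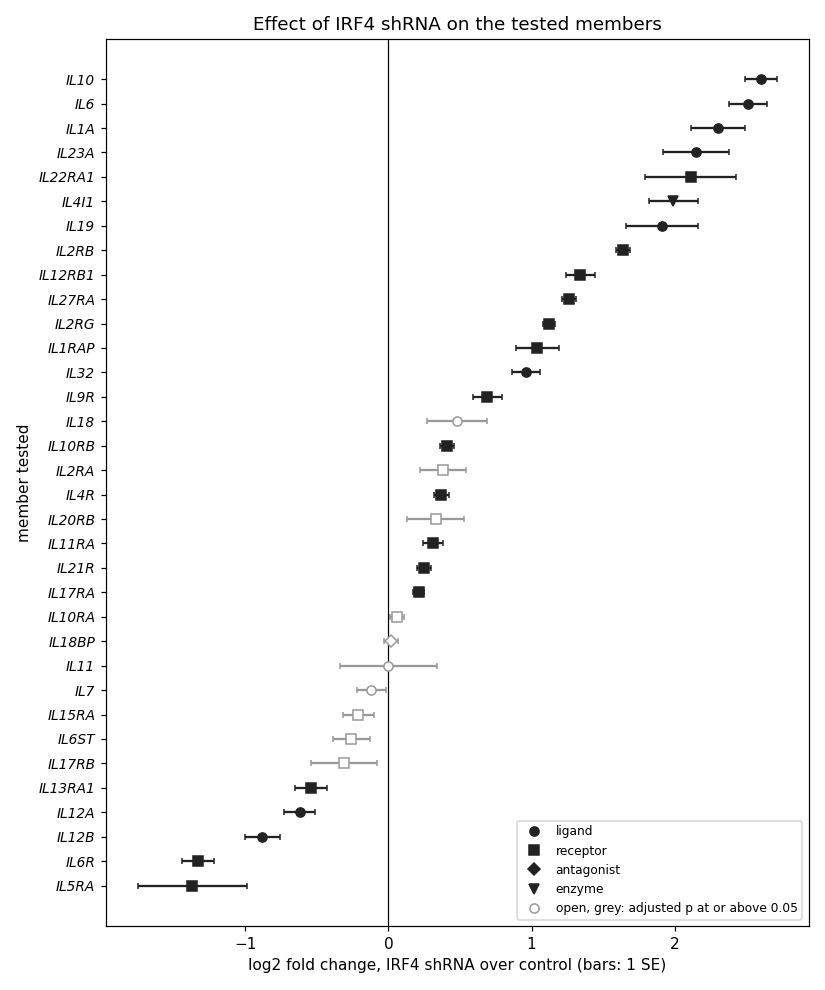
Each row is a tested member, with the log2 fold change of IRF4 shRNA over control on the x axis and bars of 1 SE; symbols give the role, and open grey symbols mark the 10 members with an adjusted p at or above 0.05. The 19 members that rose extend to IL10 at 2.60, and the 5 that fell to IL5RA at -1.37.

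The DNA just upstream of the members' start sites was searched for the composite ETS-IRF element, which IRF4 is known to bind together with an ETS family partner. Its letters are GGAA and GAAA with 2 bases of any kind between them. Also searched for were the interferon-stimulated response element, which has GAAA in place of GGAA so that no run of letters is both, and the AP-1 element TGANTCA, at which IRF4 can act with BATF and JUN proteins. RefSeq (GRCh38.p14) start sites were given for 53 of the 64 members, 30 of them tested, and both strands of the 250 bases before each start were read. The ETS-IRF element was found before at least 1 start of 5 members, against 2.99% of all 27305 symbols. Tested among these were IL12RB1, IL1RAP, IL32 and IL23A. IL12RB1, IL1RAP and IL32 met the filter in both groups and rose. Of all tested genes, in whichever group they met the filter, 24.2% rose. Of the 28 members that met the filter in both groups, with or without these letters, 15 rose (53.6%). The rise of IL23A is no support here because that gene met the filter through the IRF4 shRNA group. The other was IL18R1, which had too few counts. These promoters are shown because they carry the letters of an IRF4 element beside genes that moved; in each line the match is in capitals, on either strand, and for IL23A the second run of capitals is an AP-1 match.

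IL23A, chr12:56338634-56338883, plus strand: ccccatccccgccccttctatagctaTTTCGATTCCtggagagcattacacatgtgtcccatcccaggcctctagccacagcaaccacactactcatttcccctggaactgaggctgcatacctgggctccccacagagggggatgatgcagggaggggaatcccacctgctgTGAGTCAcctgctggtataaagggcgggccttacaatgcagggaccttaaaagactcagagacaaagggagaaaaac
IL12RB1, chr19:18098928-18099177, minus strand: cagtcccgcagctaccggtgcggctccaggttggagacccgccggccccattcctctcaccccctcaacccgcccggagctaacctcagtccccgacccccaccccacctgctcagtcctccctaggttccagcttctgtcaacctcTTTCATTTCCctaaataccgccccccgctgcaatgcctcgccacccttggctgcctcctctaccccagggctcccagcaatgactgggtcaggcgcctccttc
IL32, chr16:3065534-3065783, plus strand: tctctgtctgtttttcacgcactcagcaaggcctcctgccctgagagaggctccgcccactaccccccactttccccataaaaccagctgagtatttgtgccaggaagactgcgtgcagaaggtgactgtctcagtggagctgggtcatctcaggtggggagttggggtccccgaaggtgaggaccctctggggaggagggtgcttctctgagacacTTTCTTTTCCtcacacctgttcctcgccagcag
IL1RAP, chr3:190513835-190514084, plus strand: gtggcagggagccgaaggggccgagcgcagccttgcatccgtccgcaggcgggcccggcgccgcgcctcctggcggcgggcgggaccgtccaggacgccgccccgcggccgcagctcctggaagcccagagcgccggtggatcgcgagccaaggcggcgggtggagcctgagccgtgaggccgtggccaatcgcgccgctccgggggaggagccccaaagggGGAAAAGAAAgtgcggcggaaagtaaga

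Of IL10, 3 RefSeq starts were read, and all 3 lie inside the gene's deposited bounds. The only match to any of the 3 elements was an AP-1 element before the most downstream of these starts. That stretch is shown because IL10 had the largest log2 fold change among the tested members, with the AP-1 match in capitals.

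IL10, chr1:206770604-206770853, minus strand: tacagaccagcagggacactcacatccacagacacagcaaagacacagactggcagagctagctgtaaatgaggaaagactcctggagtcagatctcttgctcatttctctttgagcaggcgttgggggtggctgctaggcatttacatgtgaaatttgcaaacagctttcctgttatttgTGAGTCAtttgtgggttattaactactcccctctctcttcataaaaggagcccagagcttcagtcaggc

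AP-1 letters were found before 11 members, against 8.06% of all symbols; 9 of these were tested. The 4 that met the filter in both groups were IL10 and IL9R, which rose, and IL10RA and IL15RA, which did not pass; IL11 did not pass, and IL19, IL1A, IL22RA1 and IL23A entered through the IRF4 shRNA group. The interferon-stimulated element was found before 5 members (IL18BP, IL18R1, IL1RN, IL24 and IL4), against 3.71% of all symbols, and of these only IL18BP was tested, which did not pass. A match is a run of letters and does not show binding.

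Among the ligands, 11 of 27 were tested, of which 6 rose, 2 fell and 3 did not pass. The cytokines of the plot of ligand levels were low in control, at or below 8.52 CPM in every library, and IL10 stood far above the rest with IRF4 shRNA. IL10 (chr1:206767602-206774541, hg38), which dampens macrophage and T cell responses and is a growth factor for B cells, had 37.1, 41.3 and 48.5 CPM with IRF4 shRNA, against 5.02, 6.94 and 8.52 CPM in control. The lowest IRF4 shRNA library was thus far above the highest control library, and the log2 fold change was 2.60 (SE 0.11, adjusted p = 8.61e-11). IL6 (chr7:22725884-22732002), a growth and differentiation factor of B lineage cells, had 5.61, 6.41 and 6.96 CPM with IRF4 shRNA, against 0.845, 1.06 and 1.62 CPM in control. The groups were widely apart and the log2 fold change was 2.51 (SE 0.13, adjusted p = 8.06e-10). An antisense transcript that overlaps it, IL6-AS1, was also higher, at a log2 fold change of 1.53 (SE 0.36, adjusted p = 0.00231). The annotation gives the pair no shared exon bases, and whether counting used strand is not stated in the sources.

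**Figure D2:**
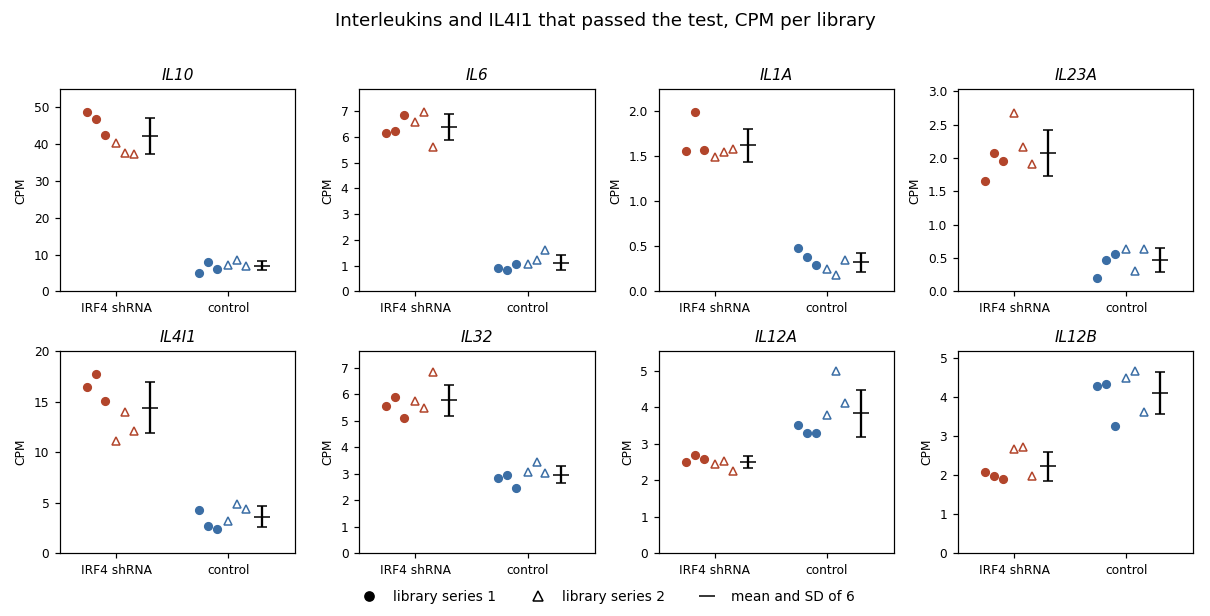
CPM of the 7 interleukins and of IL4I1 that passed the test and averaged at least 1 CPM in either group, with 1 point per library (IRF4 shRNA left, control right; circles are library series 1 and triangles series 2) and the mean with SD of 6 libraries. In all 8 panels the groups are apart, with IRF4 shRNA above control except for IL12A and IL12B.

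IL23 and IL12 are heterodimers that share the subunit encoded by IL12B, and the genes of their chains moved in opposite directions. IL23A, the subunit specific to IL23, had 1.65, 2.02 and 2.68 CPM with IRF4 shRNA, against 0.199, 0.511 and 0.638 CPM in control. This gave a log2 fold change of 2.15 (SE 0.23, adjusted p = 1.5e-06). IL12B had 1.91, 2.04 and 2.72 CPM with IRF4 shRNA, against 3.27, 4.31 and 4.66 CPM in control. Its log2 fold change was -0.88 (SE 0.12, adjusted p = 2.93e-05). IL12A, the subunit specific to IL12 (and also part of IL35), had 2.24, 2.51 and 2.70 CPM with IRF4 shRNA, against 3.29, 3.65 and 4.99 CPM in control. That was a log2 fold change of -0.62 (SE 0.11, adjusted p = 0.000276). For each of the 3 genes no library of one group fell within the range of the other. Per kilobase of exon, with IRF4 shRNA IL23A averaged 1.75, IL12A 1.22 and IL12B 0.806 CPM, and in control IL23A averaged 0.393, IL12A 1.88 and IL12B 1.49 CPM, so that on this scale IL23A was highest of the 3 with IRF4 shRNA and lowest in control. IL12A shares 78 exon bases with the antisense IL12A-AS1. The partner that IL12A and IL27 share, EBI3, averaged 9.72 ± 2.43 CPM with IRF4 shRNA and 8.07 ± 1.28 CPM in control (SD, n = 6 each) and did not pass (adjusted p = 0.179).

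IL1A, an alarm cytokine of the IL1 family that acts through the receptor IL1R1, had 1.49, 1.57 and 1.99 CPM with IRF4 shRNA, against 0.184, 0.321 and 0.483 CPM in control. The groups did not overlap, and the log2 fold change was 2.30 (SE 0.19, adjusted p = 1.02e-07). IL32, a proinflammatory cytokine of natural killer and T cells, had 5.11, 5.67 and 6.86 CPM with IRF4 shRNA, against 2.45, 2.99 and 3.46 CPM in control. The log2 fold change was 0.96 (SE 0.10, adjusted p = 7.94e-07). IL19, an IL10 relative, was scarce, at 0.489 to 1.01 CPM with IRF4 shRNA and 0.123 to 0.286 CPM in control, and its log2 fold change was 1.91 (SE 0.25, adjusted p = 1.45e-05). By the table's gene bounds IL19 and IL10 overlap on opposite strands for 3778 bases, with no shared exon bases in GENCODE release 29, and control IL19 counts were 4 to 9 per library. IL4I1, the enzyme that degrades aromatic amino acids, had 11.1, 14.5 and 17.8 CPM with IRF4 shRNA, against 2.42, 3.70 and 4.90 CPM in control. The fitted log2 fold change was 1.99 (SE 0.17, adjusted p = 1.7e-07). It shares 336 exon bases on the same strand with NUP62, a nuclear pore gene that was itself higher at a log2 fold change of 1.26, and 75 on the opposite strand with ATF5, which was lower at -1.35. How reads of these bases were assigned is not stated in the sources.

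The ligands that did not pass were IL18, IL7 and IL11. IL18, which stimulates interferon gamma production, had 0.533 to 0.951 CPM with IRF4 shRNA and 0.327 to 0.667 CPM in control, a log2 fold change of 0.48 (adjusted p = 0.0769); without IRF4 shRNA replicate 3 the value was 0.57 and passed. Its soluble antagonist IL18BP was at 40.4 ± 1.73 CPM with IRF4 shRNA and 39.8 ± 2.33 CPM in control (SD, n = 6 each; log2 fold change 0.02, SE 0.05, adjusted p = 0.721). IL7, the lymphocyte survival factor, averaged 10.8 ± 1.46 CPM with IRF4 shRNA and 11.8 ± 1.44 CPM in control. On the log2 scale the fold change was -0.12 (SE 0.10, adjusted p = 0.328). IL11, a gp130 cytokine, was at most 0.571 CPM with IRF4 shRNA and 0.495 CPM in control, and its log2 fold change was 0.00 (SE 0.34), too imprecise to give a direction.

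Of the 32 receptor genes, 21 were tested: 12 rose, 3 fell and 6 did not pass. Among the tested chains of the common gamma chain receptors, IL2RB and IL2RG had the largest log2 fold changes; IL7R was below the filter. IL2RG (chrX:71107404-71112108), the chain shared by the receptors for IL2, IL4, IL7, IL9, IL15 and IL21, had 167, 179 and 185 CPM with IRF4 shRNA, against 75.3, 82.1 and 85.0 CPM in control. The log2 fold change was 1.12 (SE 0.04, adjusted p = 6.15e-12). IL2RB (chr22:37125843-37175054), the signalling chain of the IL2 and IL15 receptors, had 66.2, 71.3 and 77.1 CPM with IRF4 shRNA, against 20.3, 22.6 and 25.1 CPM in control. This gave a log2 fold change of 1.64 (SE 0.05, adjusted p = 4.66e-12). Both groups were tight and far apart for each gene, and the log2 fold changes in the series were 1.62 and 1.66 for IL2RB and 1.05 and 1.19 for IL2RG (series 1 and 2). IL2RG shares 1403 exon bases with AL590764.2 on the same strand, which averaged 2.07 ± 0.288 CPM with IRF4 shRNA and 1.05 ± 0.293 CPM in control (SD, n = 6 each). IL2RA, the chain that gives the IL2 receptor its high affinity, was scarce at 1.21 ± 0.239 CPM with IRF4 shRNA and 0.928 ± 0.108 CPM in control (SD, n = 6 each), and did not pass at a log2 fold change of 0.38 (SE 0.16, adjusted p = 0.0616); it passed without IRF4 shRNA replicate 5 (0.46) and without replicate 6 (0.44). IL15RA, the chain specific to IL15, had 3.37 to 4.11 CPM with IRF4 shRNA and 3.35 to 5.33 CPM in control and did not pass (log2 fold change -0.21, adjusted p = 0.116), though it passed at -0.28 without control replicate 2.

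Other tested chains of this receptor family had smaller fold changes. IL21R (chr16:27402174-27452042), the receptor for the T helper cytokine that drives plasma cell differentiation, had 272, 286 and 305 CPM with IRF4 shRNA, against 216, 238 and 264 CPM in control, so that the groups were apart but close (log2 fold change 0.25, SE 0.05, adjusted p = 0.00083). It shares 1273 exon bases with IL21R-AS1 on the opposite strand. IL4R, the IL4 and IL13 receptor chain, which lies 37.4 kb before IL21R, had 66.2, 73.5 and 74.9 CPM with IRF4 shRNA, against 51.8, 56.2 and 62.4 CPM in control. Its log2 fold change was 0.37 (SE 0.05, adjusted p = 2.36e-05). IL9R had 2.79, 3.89 and 4.22 CPM with IRF4 shRNA, against 2.21, 2.31 and 2.44 CPM in control. That was a log2 fold change of 0.69 (SE 0.10, adjusted p = 5.53e-05). IL13RA1, which joins IL4R to form the receptor that also takes IL13, fell: it had 7.02, 8.58 and 10.5 CPM with IRF4 shRNA, against 11.9, 12.4 and 13.5 CPM in control. The fitted log2 fold change was -0.54 (SE 0.11, adjusted p = 0.00069). The groups did not overlap for any of these 4 genes.

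**Figure D3:**
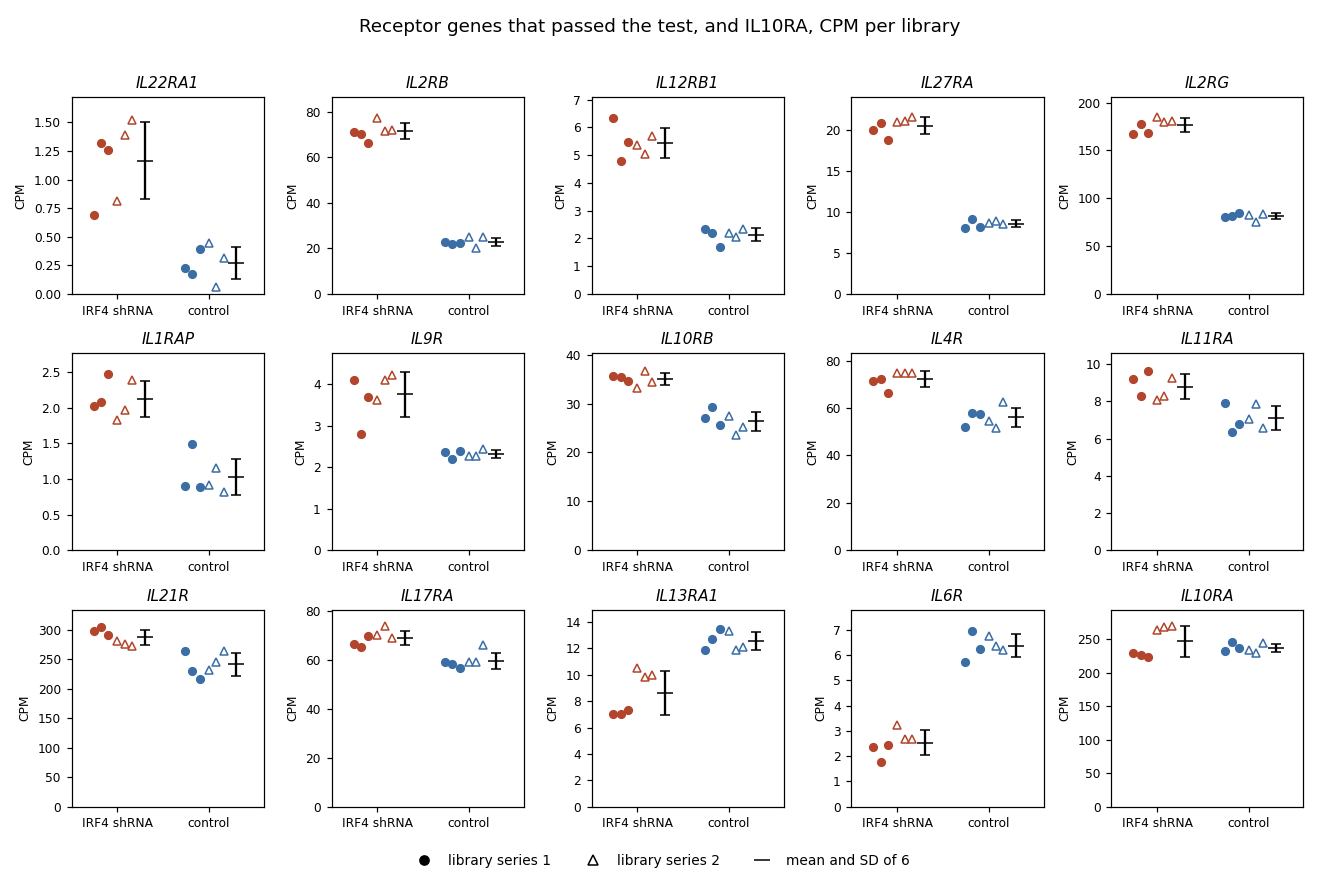
CPM of the 14 receptor genes that passed the test and averaged at least 1 CPM in either group, and of IL10RA, which did not pass, with 1 point per library (IRF4 shRNA left, control right; circles are library series 1 and triangles series 2) and the mean with SD of 6 libraries. IRF4 shRNA libraries lie below control for IL13RA1 and IL6R, and in IL10RA the series 2 libraries of IRF4 shRNA lie above and those of series 1 below all control libraries.

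In the family of gp130 and IL12 receptors, IL12RB1, IL27RA and IL11RA rose, IL6R fell and IL6ST did not pass. IL6R (chr1:154405193-154469450), the chain that binds IL6, had 1.78, 2.57 and 3.24 CPM with IRF4 shRNA, against 5.71, 6.31 and 6.96 CPM in control. On the log2 scale the fold change was -1.33 (SE 0.11, adjusted p = 1.8e-07). The receptor chain was thus lower in the libraries in which its ligand gene IL6 was higher. Its signalling partner IL6ST averaged 4.45 ± 0.671 CPM with IRF4 shRNA and 5.33 ± 0.881 CPM in control (SD, n = 6 each; log2 fold change -0.26, SE 0.13, adjusted p = 0.112) and passed only without control replicate 6 among the 12 fits that leave out 1 library, at -0.34; within series 1 it passed at -0.52 (adjusted p = 0.00491) and within series 2 it was 0.02. IL27RA, the receptor chain for IL27, had 18.7, 20.8 and 21.5 CPM with IRF4 shRNA, against 7.98, 8.56 and 9.09 CPM in control. The log2 fold change was 1.26 (SE 0.05, adjusted p = 5.55e-11). IL12RB1, the chain shared by the IL12 and IL23 receptors, had 4.78, 5.41 and 6.33 CPM with IRF4 shRNA, against 1.70, 2.20 and 2.35 CPM in control. This gave a log2 fold change of 1.34 (SE 0.10, adjusted p = 2.82e-08). The chains that complete those receptors were near the detection limit: IL12RB2 had 3 counts over the 6 IRF4 shRNA libraries and 6 over the 6 control libraries, and IL23R had 6 with IRF4 shRNA and 10 in control. IL11RA, which binds IL11, had 8.06, 8.77 and 9.63 CPM with IRF4 shRNA, against 6.38, 6.92 and 7.89 CPM in control. Its log2 fold change was 0.31 (SE 0.07, adjusted p = 0.00294); it shares 334 exon bases with GALT on the same strand.

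The receptors of the IL10 family were led by an abundant chain that did not pass and a shared chain that rose. IL10RA (chr11:117986370-118003037), which binds IL10, averaged 247 ± 23.1 CPM with IRF4 shRNA and 237 ± 6.57 CPM in control (SD, n = 6 each; log2 fold change 0.06, SE 0.05, adjusted p = 0.401). IL10RB, the second chain of the IL10 and IL22 receptors, had 33.1, 35.1 and 36.6 CPM with IRF4 shRNA, against 23.6, 26.4 and 29.2 CPM in control. That was a log2 fold change of 0.41 (SE 0.05, adjusted p = 8.9e-06). IL10RB shares 1732 exon bases with AP000295.1 on the same strand. IL22RA1, which pairs with IL10RB to bind IL22 and is known mainly from epithelial cells, had 0.694, 1.29 and 1.52 CPM with IRF4 shRNA, against 0.0613, 0.273 and 0.445 CPM in control. The fitted log2 fold change was 2.11 (SE 0.32, adjusted p = 6.82e-05). The epithelial marker EPCAM averaged 0.046 CPM with IRF4 shRNA and 0.0409 CPM in control, and KRT8 averaged 0.0598 CPM with IRF4 shRNA and 0.299 CPM in control. IL20RB, a chain for IL19, IL20 and IL24, averaged 0.872 ± 0.19 CPM with IRF4 shRNA and 0.692 ± 0.174 CPM in control and did not pass (adjusted p = 0.197). For 5 abundant or strongly changed members, chosen after their values were seen, levels per kilobase of exon with IRF4 shRNA ran from IL2RG at 64.0 CPM through IL21R at 52.6, IL10RA at 30.5 and IL10 at 19.5 to IL2RB at 15.2; in control the same 5 ran from IL21R at 44.2 CPM through IL2RG at 29.5, IL10RA at 29.3 and IL2RB at 4.87 to IL10 at 3.22.

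Of the remaining tested receptors, IL1RAP, the accessory chain of the IL1, IL33 and IL36 receptors, had 1.83, 2.05 and 2.47 CPM with IRF4 shRNA, against 0.812, 0.915 and 1.49 CPM in control. On the log2 scale the fold change was 1.04 (SE 0.15, adjusted p = 5e-05). IL17RA, the shared chain of the IL17 receptors, had 65.5, 69.4 and 73.8 CPM with IRF4 shRNA, against 56.6, 59.1 and 66.0 CPM in control; 5 of the 6 IRF4 shRNA libraries were above every control library (log2 fold change 0.21, SE 0.04, adjusted p = 0.000802). IL17RB, which binds IL17B and IL25, averaged 1.15 ± 0.27 CPM with IRF4 shRNA and 1.43 ± 0.506 CPM in control and did not pass (log2 fold change -0.31, adjusted p = 0.277); within series 1 it passed at -0.93 (adjusted p = 0.0108) and within series 2 it was 0.34 (adjusted p = 0.234). IL5RA, the IL5 receptor chain of eosinophils and some B cells, was scarce, with 43 counts over the IRF4 shRNA libraries and 104 over the control libraries, at 0.0561 to 0.356 CPM with IRF4 shRNA and 0.196 to 0.731 CPM in control. The groups overlapped, and the log2 fold change was -1.37 (SE 0.38, adjusted p = 0.0074); within series 2 it was -1.02 with an adjusted p of 0.0528, and in series 1 it was below the filter. Its partner chain CSF2RB averaged 58.0 ± 5.13 CPM with IRF4 shRNA and 54.6 ± 3.57 CPM in control (SD, n = 6 each) and did not pass (adjusted p = 0.252).

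The effect was also fitted within each library series. In series 1, 20 of 34 members tested rose and 6 fell (50.5% of all genes passed there, 25.8% higher and 24.6% lower). In series 2, 20 of 36 rose and 4 fell (38.1% of all genes passed, 20.2% higher and 17.9% lower). Of the 24 members that passed over all libraries, 23 were tested in both series, and all 23 had the same direction in both. These members were chosen by a fit of the same libraries, which favours a shared direction, so this is no separate support. A test of the difference between the series passed for IL10RA, IL13RA1 and IL17RB, 3 of 34 members, all with a higher value in series 2; among all genes 5.07% had such a difference in that direction and 8.97% in the other. IL10RA had 223 to 229 CPM in series 1 and 264 to 270 CPM in series 2 with IRF4 shRNA, against 232 to 246 CPM and 230 to 244 CPM in control, a difference of 0.26 in log2 fold change (SE 0.05, adjusted p = 0.0118). IL13RA1 had 7.02 to 7.32 CPM in series 1 and 9.84 to 10.5 CPM in series 2 with IRF4 shRNA, against 11.9 to 13.5 CPM and 11.9 to 13.3 CPM in control, a difference of 0.54 (SE 0.11, adjusted p = 0.0131). IL17RB had 0.758 to 1.13 CPM and 1.24 to 1.44 CPM with IRF4 shRNA, against 1.31 to 2.30 CPM and 0.957 to 1.30 CPM in control, a difference of 1.25 (SE 0.34, adjusted p = 0.0287). For IL10RA and IL13RA1 the control libraries of the series overlapped and the IRF4 shRNA libraries did not. IRF4 itself was at 34.7% of control in series 1 and 47.9% in series 2; its part in these differences was not tested. These calls moved with the libraries used, as did those over all genes, of which 2308 of 16437 passed. Leaving out control replicate 1 gave 5 members and 3124 of 16598 genes, and leaving out control replicate 4 gave 7 members and 5357 of 16642 genes; each of the other 10 libraries left out gave 2 or 3 members and 736 to 1379 genes. Control replicates 5 and 6 were the libraries that stood apart from control replicates 2 to 4. Without replicates 5 and 6, IL10RA was the only member that passed, with 206 of 16745 genes. The difference was then 0.43 for IL13RA1 (adjusted p = 0.132) and 0.99 for IL17RB (adjusted p = 0.289). The IL17RB difference did not pass in 9 of the 12 fits that leave out 1 library, at 1.02 to 1.31 (adjusted p = 0.0572 to 0.0805), and passed without control replicate 1, control replicate 4 or IRF4 shRNA replicate 2.

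**Figure D4:**
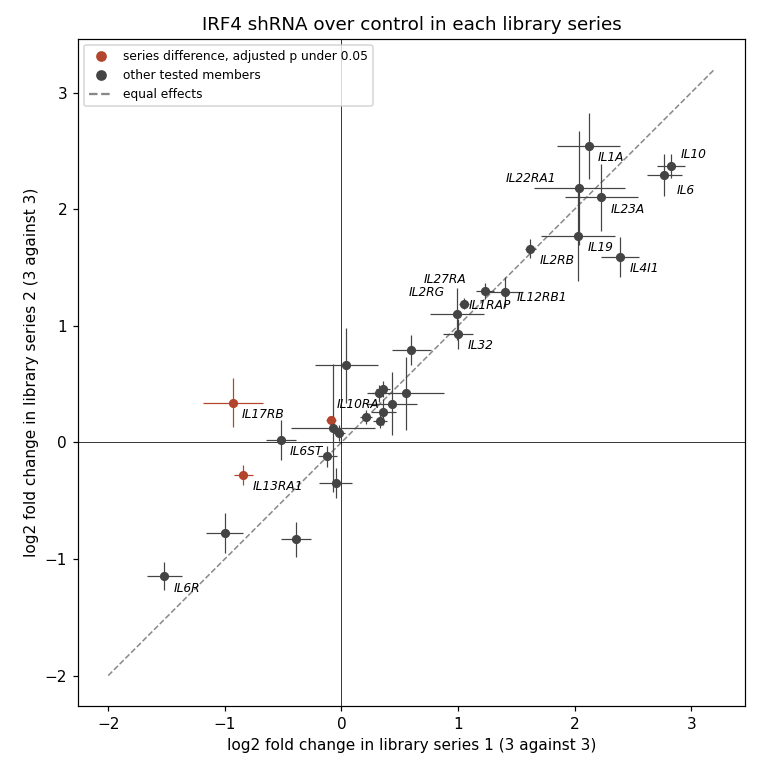
Log2 fold change of IRF4 shRNA over control in library series 2 (y axis) against series 1 (x axis) for the 33 members tested in both, with bars of 1 SE and a dashed line of equal effects. IL10RA, IL13RA1 and IL17RB, in red, are the members whose series difference passed the test, and all 3 lie above the line.

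The 30 members below the filter are given as counts summed over the 6 libraries of a group, where 3 counts over a group is taken as the detection limit, and folds against a group at 0 use that limit. In a fit of the same kind without a filter, 9 of them passed, all 9 higher with IRF4 shRNA and 0 lower. Over all members that fit called 33 of 61, 28 of them higher, where 32.5% of all 25215 genes were called and 17.5% were higher. IL2, the T cell growth factor that binds IL2RB and IL2RG, had 63 counts with IRF4 shRNA and 0 in control, at least 19.5-fold higher (adjusted p = 6.49e-05). IL17REL, a gene resembling the IL17 receptors, had 74 counts with IRF4 shRNA and 2 in control, a ratio of 34.3 (95% counting interval 9.16 to 288; adjusted p = 0.000219). All 6 IRF4 shRNA libraries had counts of both genes. For IL17REL these were 12 to 24 per library in series 1 and 3 to 13 in series 2. IL15, which uses the same signalling chains as IL2, had 34 counts with IRF4 shRNA and 5 in control (ratio 6.3, interval 2.45 to 20.6), and IL7R, the IL7 receptor chain, had 41 with IRF4 shRNA and 3 in control (ratio 12.7, interval 4.04 to 63.9). Most of the IL7R counts came from IRF4 shRNA replicates 5 and 6, with 15 each, and the other IRF4 shRNA libraries had 1 to 5. Of the T cell markers, CD3E was at or near 0 in both groups, and TRAC averaged 0.494 CPM with IRF4 shRNA and 0.0998 CPM in control; the part of TRAC in these counts was not tested.

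Of the 9 low members of the IL1 family, IL1B, IL1RN, IL1R1 and IL36RN passed the fit without a filter, and IL18R1, IL1R2, IL1RAPL1, IL36G and IL37 did not pass or were at 0. IL1B, the main secreted IL1, had 26 counts with IRF4 shRNA and 1 in control (ratio 24.1, interval 3.96 to 988). IL1RN, the IL1 receptor antagonist, had 36 counts with IRF4 shRNA and 0 in control, at least 11.1-fold higher, and IL1R1, the signalling receptor, had 27 with IRF4 shRNA and 0 in control, at least 8.34-fold higher. IL36RN, the IL36 antagonist, had 10 with IRF4 shRNA and 0 in control (at least 3.09-fold), and IL24, an IL10 relative, had 11 with IRF4 shRNA and 0 in control (at least 3.4-fold). All of these passed the fit without a filter. The decoy receptor IL1R2 had 31 counts with IRF4 shRNA and 13 in control and did not pass (adjusted p = 0.167). IL1A and IL1B are next to each other on chromosome 2, 45.3 kb apart, with IL37, IL36G, IL36RN and IL1RN following; IL37 was at 0 in every library and IL36G had 1 count with IRF4 shRNA and 0 in control, too few to compare. On chromosome 1, IL10, IL19, IL20 and IL24 lie in that order within 1 cluster, and IL20, between IL19 and IL24, had 1 count with IRF4 shRNA and 0 in control.

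**Figure D5:**
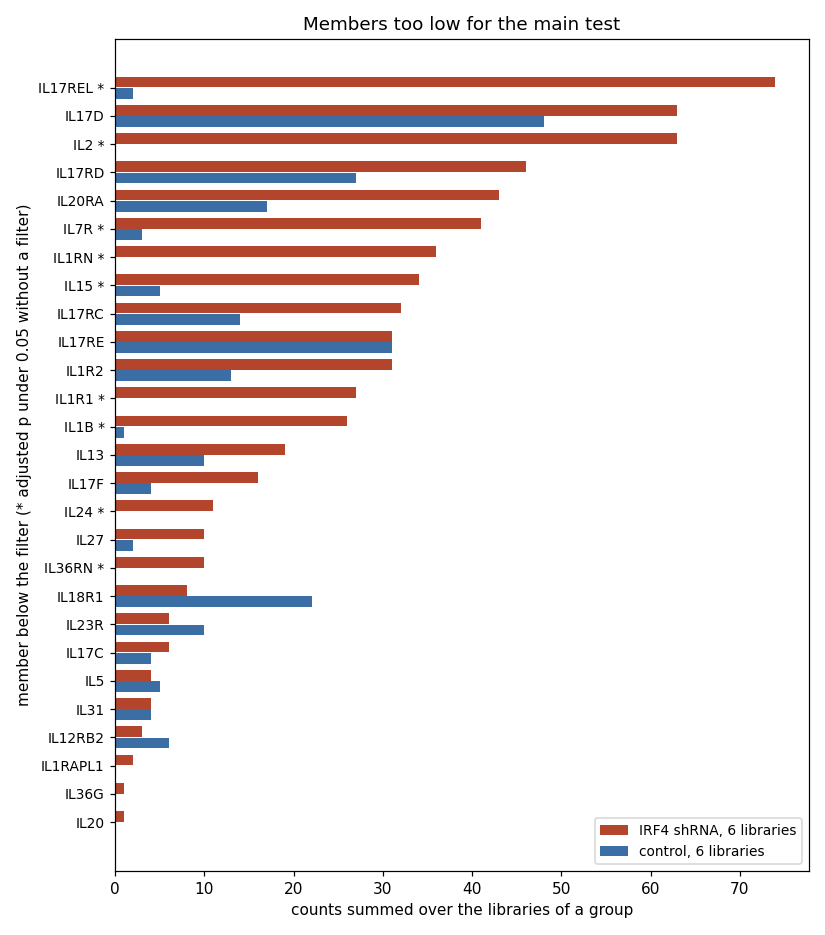
Counts summed over 6 libraries of IRF4 shRNA (upper bar) and of control (lower bar) for the 27 members that had counts but were below the filter; an asterisk marks the 9 with an adjusted p under 0.05 in the fit without a filter. IL17REL and IL2 reach 74 and 63 counts with IRF4 shRNA and 2 and 0 in control.

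The other low members did not pass that fit. IL20RA had 43 counts with IRF4 shRNA and 17 in control (adjusted p = 0.0568), and IL17F, IL17RC, IL17RD, IL13 and IL27 were also higher in count with IRF4 shRNA. IL18R1, the IL18 receptor chain, had 8 counts with IRF4 shRNA and 22 in control (ratio 0.337, interval 0.13 to 0.786; adjusted p = 0.13). IL17D had 63 counts with IRF4 shRNA and 48 in control, and IL17RE 31 in each. IL5, IL31, IL17C and IL1RAPL1 had 6 counts or fewer in each group. The cytokines that define type 2 helper cells were at 0 (IL4) or had at most 19 counts over a group (IL13 and IL5), and neither IL13 nor IL5 passed the test without the filter.

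Genes on the pathways of these receptors were counted from 7 lists that hold no member. Of 70 genes tested among 82 listed, 29 rose and 10 fell (34 rose and 4 fell when scaled by library size alone), and 31 did not pass. Together 55.7% of the genes tested passed, where 48.2% of all genes did, 24.2% higher and 23.9% lower. The Janus kinase and STAT list, with 8 of 11 higher and 1 lower, held STAT5A, which had the largest log2 fold change of the genes tested on the 7 lists. STAT5A, the transcription factor that IL2 and IL15 receptors activate, had 15.7, 16.8 and 18.1 CPM with IRF4 shRNA, against 0.915, 1.36 and 1.48 CPM in control. The log2 fold change was 3.67 (SE 0.09, adjusted p = 1.93e-13). STAT3, the main target of IL6 and IL10 receptors, rose by 0.53 (SE 0.04, adjusted p = 1e-08) and the kinase JAK1, shared by the gamma chain and gp130 receptors, by 0.47 (SE 0.04, adjusted p = 3.85e-08), both on the log2 scale. STAT5B, the near copy of STAT5A, was the gene that fell, by 0.19 on the log2 scale (adjusted p = 0.00826). How reads that match both were shared is not stated in the sources.

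On the lists of the IL1 and IL17 side, 33.3% (IL1 receptor signalling) to 85.7% (IL1 and IL18 processing) of tested genes passed, where 48.2% of all genes did. For the processing of IL1 and IL18, 6 of 7 tested genes rose and 0 fell. NLRP1, an inflammasome sensor, had 22.8, 24.1 and 26.5 CPM with IRF4 shRNA, against 4.47, 4.57 and 5.27 CPM in control. Its log2 fold change was 2.37 (SE 0.06). CASP1, the protease that cleaves IL1B and IL18, had 15.3, 16.1 and 17.3 CPM with IRF4 shRNA, against 5.40, 5.51 and 6.30 CPM in control. That was a log2 fold change of 1.49 (SE 0.06). CASP4 (0.98) and CARD16 (0.97) rose as well. In IL1 receptor signalling 3 of 12 rose and 1 fell, MYD88 (0.68), the adaptor, IRAK3 (1.10), an inhibitory kinase relative, and IRAK2 (2.28) being higher and TAB3 (-0.18) lower. In IL17 signalling 4 of 6 rose and 1 fell: TRAF3IP2, the adaptor that IL17 receptors recruit, fell by 0.85 on the log2 scale, and TRAF5 (0.65), USP25 (0.39), ZC3H12A (0.31) and NFKBIZ (0.18) rose. Of the 5 tested partner subunits and related cytokines without an interleukin name, CLCF1 (0.70) and LIF (0.47), both gp130 cytokines, rose and 0 fell.

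Of the feedback inhibitors, 2 of 17 rose and 4 fell, so that 35.3% passed, where 48.2% of all genes did. PTPN6, a phosphatase that restrains cytokine receptors, had 504, 563 and 608 CPM with IRF4 shRNA, against 214, 229 and 243 CPM in control. The fitted log2 fold change was 1.28 (SE 0.05, adjusted p = 2.04e-11), and SOCS5 rose by 0.33 on the log2 scale. SH2B3, an adaptor that inhibits JAK2, had 87.7, 101 and 117 CPM with IRF4 shRNA, against 181, 191 and 201 CPM in control. On the log2 scale the fold change was -0.91 (SE 0.07), and SOCS7 (-0.38), PTPN2 (-0.17) and PTPN1 (-0.10) were the others that fell, by these log2 fold changes. SOCS3, the feedback inhibitor induced by STAT3, averaged 39.2 ± 3.91 CPM with IRF4 shRNA and 38.4 ± 5.15 CPM in control (SD, n = 6 each; adjusted p = 0.795). Among transcription factors known to regulate IL10, 4 of 12 tested rose and 3 fell (58.3% passed, with a median log2 fold change of -0.02). CREM (0.75), NFIL3 (0.63) and BHLHE40 (0.44) were among those that rose, by these log2 fold changes, BATF3 (-0.28), AHR (-0.25) and PRDM1 (-0.19) fell, and BATF did not pass (0.23, SE 0.10, adjusted p = 0.0805).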

How the data were processed

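RNA was measured in 12 libraries of the TMD8 line, 6 with IRF4 shRNA and 6 with scramble shRNA. Per the labels' protocols, libraries came from a TruSeq stranded kit and were read paired-end. The submitters' processing notes name STAR, HTSeq and hg38 (no versions). The authors deposited 1 table of estimated counts (expected counts) per gene with no normalization, for 26318 genes. Of its values, 66.6% were whole at a tolerance of 1e-06; the step that gave fractions, the annotation release and the use of strand are not given in the sources used here. Of the 12 count columns, 0 belonged to no sample. Gene ends in the table are 1 base too far and were lowered by 1.

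Counts were rounded and tested with edgeR 4.0.16 in R 4.3.3 (quasi-likelihood, TMM, filterByExpr with a minimum count of 10), with Benjamini-Hochberg adjustment over all 16437 genes and a threshold of 0.05. Each SE is |log2 fold change| over the root of the F statistic. CPM are on TMM-scaled totals, and 3 counts in a single library were 0.0762 to 0.098 CPM. The detection limit used for folds against a group at 0 was lower, at 3 counts over all libraries of the group. Counting intervals are 95% (Clopper-Pearson) and, like the detection limit, cover counting error only. Exon lengths, shared exon bases and transcript GC content came from GENCODE release 29. The fits were also run on simulated counts with known changes, in which no control replicates stood apart as they did here. The outcome is not reported here. Every pair of libraries within a group differed by more than counting noise, with 2.83 to 49.2 for chi-square over its degrees of freedom. Pairs of IRF4 shRNA libraries were at 2.83 to 3.62 within a library series and at 12.0 to 18.1 between the series. Alternatives were DESeq2 1.42.0, other scalings and filters, each library or library series left out, covariates, replicate blocks and removal of the GC trend.

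The members, gene lists and tests were chosen with earlier results of these data known. Named with values per library were members that passed at a mean of at least 1 CPM in either group and the markers IL10, IL2RB and IL2RG; all other members are accounted for by counts or ranges, and up to 4 genes per pathway list with the smallest p are named; some genes of the lists are not reported here by name. EBI3, CSF2RB, STAT5B, SOCS3, NFKBIZ, PTPN1, PTPN2, BATF, BATF3, AHR, PRDM1 and the genes that overlap members were named after their values were seen.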

Additional observations from a re-analysis of the deposited data

Results flagged for a closer look

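Of 68 groups of 6 libraries (34 tested members in each group), 3 held a library far from the others by Dixon's test at 95%, which chance gives in about 1 group in 20. IL1A had 1.99 CPM in IRF4 shRNA replicate 2, where the other IRF4 shRNA libraries had 1.49 to 1.58 CPM. IL17RA had 66.0 CPM in control replicate 6, where the other control libraries had 56.6 to 59.2 CPM. IL18BP had 35.3 CPM in control replicate 5, where the other control libraries had 39.8 to 41.6 CPM.

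The effect of IRF4 shRNA differed between the library series, by the test of the difference, for 3 members. The log2 fold change in series 2 minus that in series 1 was 0.26 for IL10RA (adjusted p = 0.0118), 0.54 for IL13RA1 (adjusted p = 0.0131) and 1.25 for IL17RB (adjusted p = 0.0287). Without control replicates 5 and 6, which stood apart from control replicates 2 to 4, only IL10RA passed among the members. Of all genes 206 then passed, against 2308 with all libraries. The labels do not say what the library series are.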

How the results depend on the processing

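The count of members that passed was 24 to 25 with 1 library left out in turn, 24 with DESeq2, 26 with library size alone, 25 with the GC trend removed, 27 without control replicates 5 and 6, 33 with no filter and 20 at a mean of at least 1 CPM. Of the 24 called members, 22 kept direction and call under all of their alternatives (569 of 571 values); within series 2, IL11RA at 0.26 (adjusted p = 0.0888) and IL5RA at -1.02 (adjusted p = 0.0528) did not pass, where 3 libraries a group remain. The count with a series difference was 3 (2308 of all genes), and 5 with DESeq2 (2951 genes), 1 without control replicates 5 and 6 (206 genes), and 2 to 7 with 1 library left out (736 to 5357 genes); the cause was not tested. Directions reversed only among members that did not pass: IL10RA was -0.09 in series 1; IL17RB was 0.34 and IL6ST 0.02 in series 2, though both passed as lower in series 1 (-0.93 and -0.52); IL18BP was -0.02 in series 1, -0.02 without control replicates 5 and 6 and -0.01 to 0.06 with 1 library left out; IL11 was -0.07 in series 1, -0.08 without control replicates 5 and 6, -0.06 with the GC trend removed, -0.02 under either replicate block and -0.18 to 0.20 with 1 library left out. The cause was not tested. Pathway genes passing numbered 39, and 36 to 44 with 1 library left out. They numbered 53 in series 1 alone (50.5% of all genes passed there) and 37 in series 2 alone (38.1%). Without control replicates 5 and 6 the number was 49 (51.8% of all genes), and with the GC trend removed 47 (54.1%).

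Replicate numbers did not pair the libraries (same-numbered pairs correlated at -0.262 to 0.130 in their deviations from group means over both numberings, and none was the best match). With the replicate block, 24 members passed under the title numbers and 24 under the library-name numbers, with 35 and 34 pathway genes and 3 series differences. Depth limits members at a few counts: a share at or below 3 counts over a group cannot be told from 0.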
